A study of Bos taurus with 8 samples.

Results

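The genes described here are the 5 subunits of the transcription factor NF-kB (RELA, RELB, REL, NFKB1 and NFKB2) and 5 of its inhibitors or modulators (NFKBIA, NFKBIB, NFKBIE, NFKBIZ and TNFAIP3) in cattle liver. They were chosen by symbol, as the probes that were not controls and whose gene name in the array files matched one of these 10 symbols. Each gene had 1 probe, so the set held 10 of the 15008 distinct probes. All 10 are described, and 8 of them were bright enough to be tested. In none of these 8 did expression in animals given the antibody differ from that without it beyond the error of the test.

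The 8 liver samples came from 4 fistulated Holstein bulls, aged 5 to 6 months, in a Latin square trial of 11 cattle in which every animal was to receive each dose. The 4 g group received 4 g per head of an egg yolk immunoglobulin against lipopolysaccharide (LPS) into the rumen each day for 14 days, and the 0 g group is the control dose of the same animals. Both groups were fed hay for 11 days, then for 2 days a high-grain diet (50% concentrate and 50% soybean flakes) meant to bring on subacute ruminal acidosis (SARA), and hay again after it. Samples were taken 2 days after the challenge. Each of the animals numbered 19, 20, 23 and 24 gave 1 array at each dose. The 2 g dose was not analysed here. No group without the grain challenge was analysed here, so both groups share it. The labels do not say in which order the doses were given, so order was not a covariate. The labels name liver as the tissue, but the extraction protocol beside them speaks of rumen epithelium.

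NF-kB is a family of dimers that wait in the cytoplasm of most cells, held there by inhibitor proteins of the IkB family. When a receptor such as TLR4 meets LPS, the IkB kinase marks the inhibitors for destruction, and the freed dimers enter the nucleus and switch on genes of inflammation, among them their own inhibitors. In liver this pathway acts in Kupffer cells and other immune cells as well as in hepatocytes, where it contributes to the acute phase response. Because the dimers are switched by destruction of protein, a transcript level says how much of a component could be made and not how active the factor was.

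The probes of 4 members are shown in full, 2 of subunits and 2 of inhibitors. REL stands for the subunits made in their final form and NFKB1 for those cut from a longer precursor, while NFKBIE and TNFAIP3 are the inhibitors that were too faint to be tested. Each is 60 bases long and written 5′ to 3′ in lower case.
REL: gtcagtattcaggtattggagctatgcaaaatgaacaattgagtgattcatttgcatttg
NFKB1: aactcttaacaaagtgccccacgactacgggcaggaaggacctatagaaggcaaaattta
NFKBIE: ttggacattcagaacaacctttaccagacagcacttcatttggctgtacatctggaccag
TNFAIP3: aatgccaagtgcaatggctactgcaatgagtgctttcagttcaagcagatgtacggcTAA
The capitals at the end of the TNFAIP3 probe mark the letters TAA, a stop codon triplet. On the cattle assembly UMD 3.1, to which the files' coordinates refer, the REL probe lies on the plus strand at chr11:43527617-43527676 and the NFKB1 probe on the minus strand at chr6:23558129-23558188. The TNFAIP3 probe lies on the plus strand at chr9:76776815-76776874. The NFKBIE probe, on the minus strand at chr23:17883406-17884215, spans 810 bases of the genome with its 60 letters, so it joins sequences that are apart in the genome. Exon and untranslated region boundaries of this assembly were not used here.

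Levels are log2 of the processed signal of a probe minus the 75th percentile of its array. They compare arrays for 1 probe and not 1 probe with another. The 75th percentile ran from 125.8 to 311.7, and 2 arrays were much dimmer than the others, animal 19 at 4 g (125.8) and animal 20 at 0 g (126.3). Between 64.4% and 80.4% of the probes were well above background, and no probe was saturated on any array. These 2 arrays lay wholly above or wholly below the other 6 for 44.0% of the 10985 tested probes. Hepatocyte markers were well above background on every array (15 of 15, mean level 5.25 to 5.68 in the 4 g group and 5.21 to 5.70 in the 0 g group), while between 4 and 8 of 14 rumen and squamous epithelium markers were, with mean levels of −6.68 to −4.38. The 0 g array of animal 23 carried pancreatic acinar transcripts, with 13 of 13 markers well above background at a mean level of 6.62, against −5.03 to −3.38 on the other arrays. For a few probes, the animal or dose labels of the arrays of animals 23 and 24 also went against the data. Of 6 probes that fell into 2 separate levels with both arrays of animal 19 on one side and both of animal 20 on the other, 4 (GIMAP4, GIMAP6, IL20RA and LOC768255) put both 0 g arrays of animals 23 and 24 on the high side and both of their 4 g arrays on the low side, so neither animal matched itself there. The other two put all 4 of these arrays on the low side. These probes were picked after their values were seen. Whether an animal label, a dose label or neither is wrong was not tested. The 4 g minus 0 g differences of animals 23 and 24, and counts over all 4 animals, rest on these labels. Over all tested probes, the deviations of the 2 arrays of an animal from their group means correlated at 0.21 and 0.13 in animals 23 and 24. In animals 19 and 20, each of which has 1 dim array, they correlated at −0.19 and −0.18. Each group holds 1 dim array, which moves its mean and with it the deviations of every animal, so these correlations cannot check the animal labels. Because of the probes that went against the labels, results are also given for animals 19 and 20 alone.

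The comparison asked whether daily antibody against LPS altered the transcripts of NF-kB components in liver. Of the 8 members tested, 0 passed at an adjusted p of 0.05 (limma with the animal as a block, Benjamini-Hochberg over all 10985 probes), against 0.00% of all probes, and 0 had an unadjusted p under 0.05, against 1.09% of all probes. The median log2 difference (4 g minus 0 g) was 0.09 over the 8 members and 0.03 over all tested probes. The difference was above 0 in 5 members and below 0 in 3, and above 0 in 55.1% of all tested probes. With normexp background correction it was above 0 in 4 and below 0 in 4 (median −0.01, against −0.04 over all probes, of which 37.5% were above 0). The median of the members was 0.02 without animal 24 and with array weights. The 4 g and 0 g arrays overlapped in all 8, while 0.610% of all tested probes had groups that did not overlap. A p that misses the threshold does not show that the levels were alike: the 95% interval of the member with the widest interval, RELA, ran from −0.76 to 0.63. In this fit the interval of every tested member lay within a 2-fold change (1 log2 unit) to either side, as it did for 64.3% of all tested probes. In other fits it did not. The RELB interval reached 1.12 with no animal block and 1.29 without animal 23, and that of RELA reached −1.04 without animal 20. A change beyond 2-fold is thus not excluded. In animals 19 and 20 alone the 8 differences had the same directions as in all 4 animals and lay between −0.23 and 0.48. Without the array that carried the pancreatic transcripts, in an unpaired fit, they lay between −0.23 and 0.33. Markers of 2 other liver cell types stood lower at 4 g: endothelial markers in 8 of 8 genes (median −0.19) and stellate cell and fibroblast markers in 7 of 8 (median −0.50), with 0 past the threshold in either list and an unadjusted p under 0.05 in 0 endothelial and 2 stellate genes. Their part in the members' levels was not tested. Nothing in the labels says more about separate sampling than the animal and the dose, so the errors cover the spread between these 4 pairs of arrays.

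**Figure D1:**
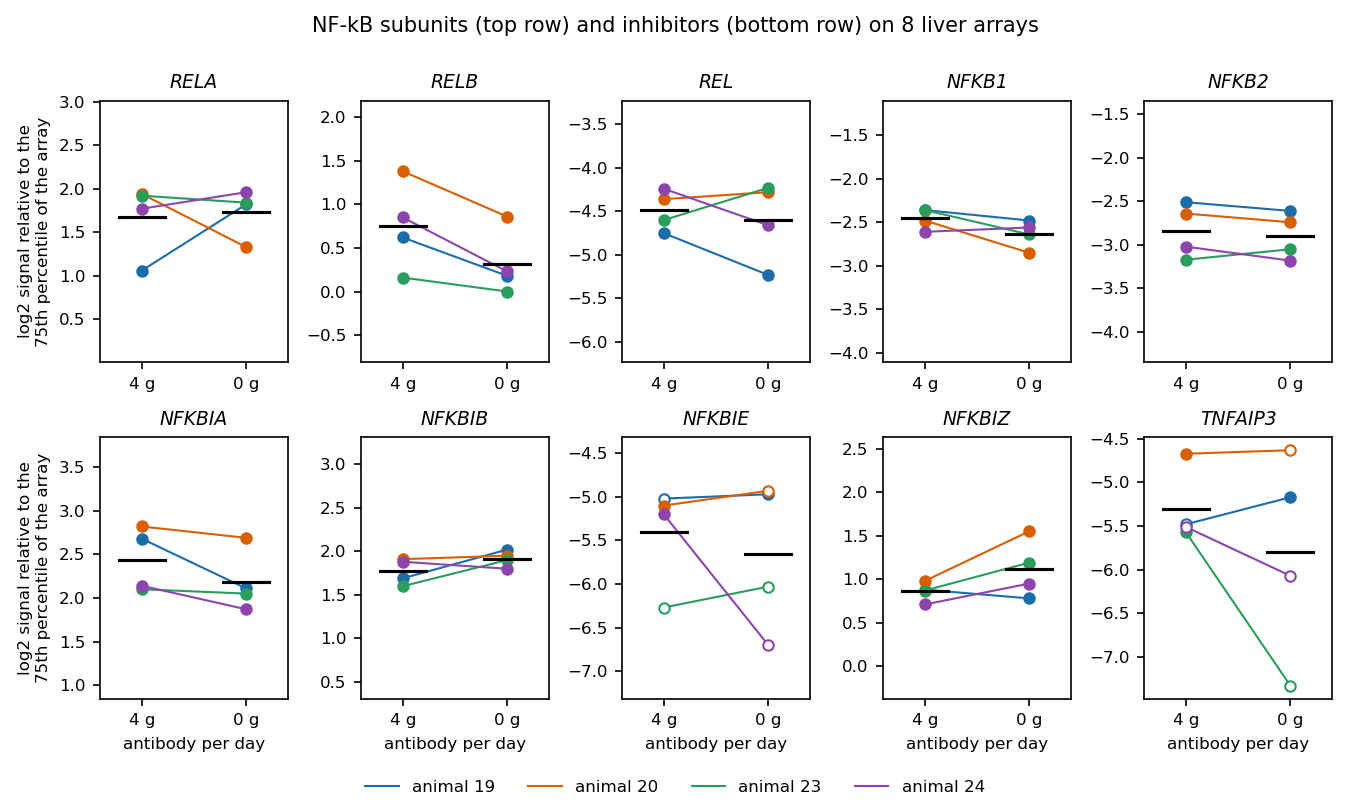
Level of each of the 10 genes (log2 signal minus the array's 75th percentile) at 4 g and 0 g of antibody per day, 1 line per animal, with black bars at the mean of 4 animals; each panel spans 3 log2 units. Filled points were well above background and open points were not. RELB and NFKBIA stood higher at 4 g in all 4 animals, with groups that overlap, and most points of NFKBIE and TNFAIP3 are open.

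Among the subunits, RELB had the widest difference. RELB pairs with the NFKB2 product p52 and serves the slower, non-canonical branch of the pathway that answers to receptors such as the lymphotoxin beta receptor. Its level was 0.62, 1.38, 0.16 and 0.85 on the 4 g arrays of animals 19, 20, 23 and 24, against 0.18, 0.86, 0.00 and 0.23 on the 0 g arrays. The 4 g array was the higher one in 4 of 4 animals, but animals differed by more than the doses did: animal 20 at 0 g (0.86) stood above 3 of the 4 arrays at 4 g. The means were 0.75 ± 0.51 at 4 g and 0.32 ± 0.38 at 0 g (SD, n = 4 each), a log2 difference of 0.44 (SE 0.22, 95% CI −0.10 to 0.97, limma adjusted p = 1.00). The difference was 0.48 in animals 19 and 20 alone (95% CI −0.92 to 1.88) and 0.40 in animals 23 and 24 alone (95% CI −0.40 to 1.20). Without the 2 dimmest arrays, in an unpaired fit, it was 0.67 (95% CI −0.06 to 1.39). For every gene that fit keeps animal 19 only at 0 g and animal 20 only at 4 g, so it mixes dose with animal. Of the 0.67, the part due to these animals was not tested. Its probe lies at chr18:53128098-53128157 on the plus strand (UMD 3.1).

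RELA encodes p65, which carries the main activation domain of the family and forms the classical dimer with the NFKB1 product p50. RELA stood at 1.06, 1.94, 1.92 and 1.77 on the 4 g arrays of animals 19, 20, 23 and 24, against 1.82, 1.33, 1.84 and 1.96 on the 0 g arrays. Both low values came from the 2 dimmest arrays, 1 of each dose, and the other 6 arrays lay between 1.77 and 1.96. The mean over the 2 dim arrays was 1.19, which is 0.68 below the 1.88 of the other 6, and RELA was the 1 tested member whose dim arrays did not overlap with the rest, whereas this held for 44.0% of all tested probes, and for 19.7% with the dim arrays on the low side. The means were 1.67 ± 0.42 at 4 g and 1.74 ± 0.28 at 0 g (SD, n = 4 each), a log2 difference of −0.07 (SE 0.29, limma adjusted p = 1.00). The difference was −0.77 in animal 19 and 0.61 in animal 20, and in both the dim array was the lower one. It was 0.00 without the 2 dimmest arrays in an unpaired fit (95% CI −0.37 to 0.38), and 0.17 without animal 19. The RELA probe lies at chr29:44496684-44496743 on the minus strand (UMD 3.1).

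REL, known as c-Rel, is most abundant in lymphocytes and other blood cells. It was well above background on all 8 arrays. Its level was −4.75, −4.36, −4.60 and −4.24 on the 4 g arrays, in the order of animals 19, 20, 23 and 24, against −5.23, −4.28, −4.23 and −4.66 on the 0 g arrays. On the dim 4 g array of animal 19 the lowest level of any probe well above background was −4.84, just under that of REL, while on the other 4 g arrays that limit was −5.61 or lower. The lowest array for REL was the 0 g array of animal 19, and 2 animals were higher and 2 lower at 4 g. The log2 difference was 0.11 (SE 0.25, 95% CI −0.50 to 0.72, limma adjusted p = 1.00), and it turned to −0.01 without animal 19 and −0.07 with normexp background correction. In bulk liver fewer cells that express a gene and less RNA per cell cannot be told apart. Lymphocyte markers, the cells in which REL is strongest, averaged −3.44 to −2.88 over 14 genes on the 4 g arrays and −3.15 to −2.82 on the 0 g arrays, and their part in the REL level was not tested. Between 9 and 13 of these markers were well above background on each array, with 9 on the dim 0 g array of animal 20, which gave the −2.82.

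NFKB1 and NFKB2 encode the precursors p105 and p100, which are cut to p50 and p52 and which hold back other subunits in their uncut form. NFKB1 varied little, with levels of −2.36, −2.48, −2.36 and −2.61 on the 4 g arrays of animals 19, 20, 23 and 24 and −2.48, −2.85, −2.64 and −2.56 on the 0 g arrays. It was higher at 4 g in 3 of 4 animals, and the log2 difference of 0.18 (SE 0.22, 95% CI −0.35 to 0.71, limma adjusted p = 1.00) fell to 0.01 with normexp background correction.

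NFKB2 values lay closer by pair of animals than by dose. It stood at −2.51, −2.64, −3.17 and −3.02 on the 4 g arrays of animals 19, 20, 23 and 24, against −2.61, −2.74, −3.05 and −3.18 on the 0 g arrays. All 4 arrays of animals 19 and 20 lay above all 4 of animals 23 and 24, while within an animal the doses differed by at most 0.16. The means were −2.62 ± 0.09 over the arrays of animals 19 and 20 and −3.11 ± 0.08 over those of animals 23 and 24 (SD, n = 4 arrays from 2 animals each), a gap of 0.48. With 2 animals on each side this gap is given as a description, and the F-test over all 4 animals had an unadjusted p of 0.254 for NFKB2 (limma adjusted p = 0.985). Of all tested probes 9.50% separated these pairs of animals as fully, and 5.80% did so in the direction of NFKB2. The untested members NFKBIE (gap 1.04) and TNFAIP3 (gap 1.13) also separated them in this direction, on signals mostly not well above background. The animal pairs lie in different rows of the slide, so row and animal cannot be told apart. The dose difference of NFKB2 was 0.06 (SE 0.21, 95% CI −0.46 to 0.58, limma adjusted p = 1.00). The NFKB2 probe lies at chr26:22898386-22898445 on the plus strand (UMD 3.1).

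**Figure D2:**
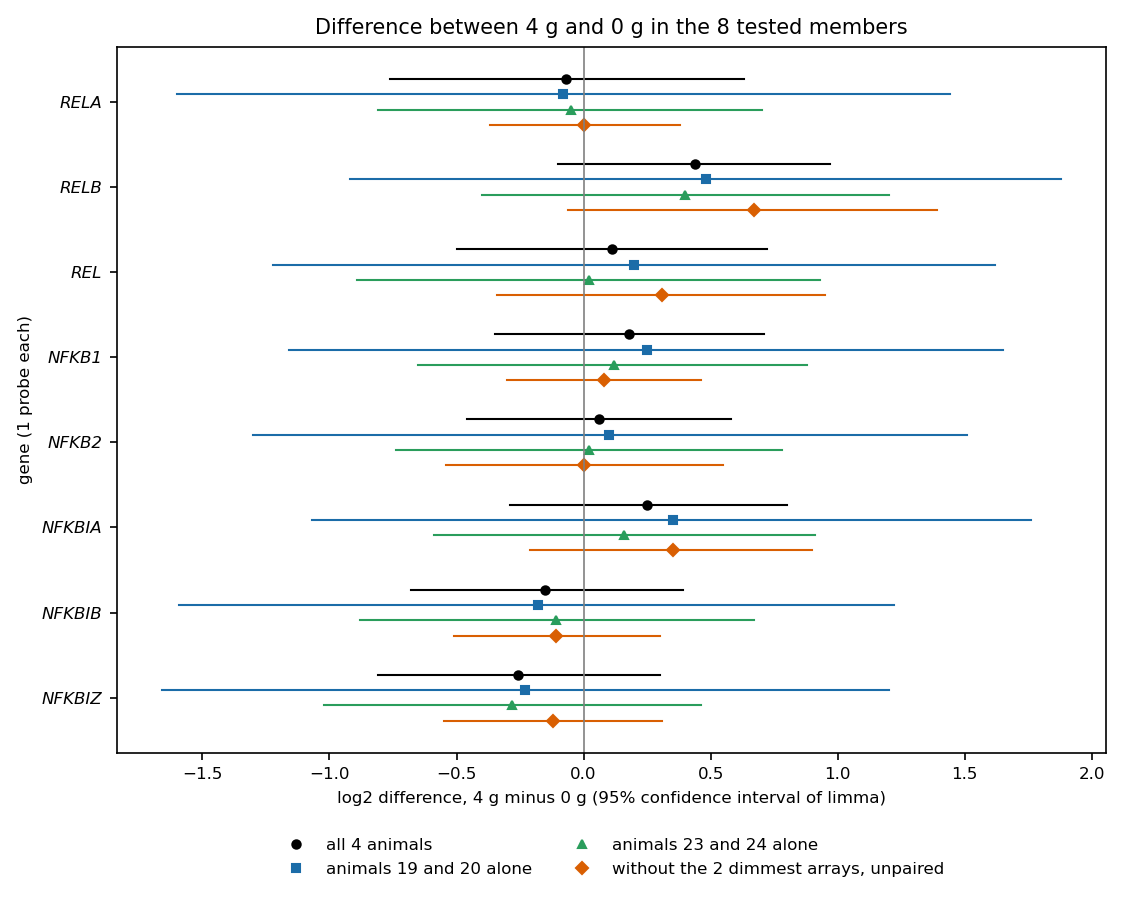
Log2 difference (4 g minus 0 g) of the 8 tested genes with 95% confidence intervals, for all 4 animals, for animals 19 and 20 alone, for animals 23 and 24 alone and, unpaired, without the 2 dimmest arrays. The last of these fits keeps animal 19 only at 0 g and animal 20 only at 4 g. Every interval crosses 0, and RELB has the value farthest from 0 in each of these fits.

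Among the inhibitors, NFKBIA stood higher and NFKBIZ lower at 4 g, neither beyond the error of the test. NFKBIA encodes IkB alpha, which binds dimers in the cytoplasm and is remade within a short time because its own gene is a target of NF-kB, so that its transcript is often read as a trace of recent activity. Its level was 2.68, 2.82, 2.10 and 2.14 on the 4 g arrays of animals 19, 20, 23 and 24, against 2.11, 2.69, 2.05 and 1.87 on the 0 g arrays. It was higher at 4 g in 4 of 4 animals. RELB and NFKBIA were the 2 of 8 tested members with this pattern, which 3.17% of all tested probes showed. None of the 8 was lower in 4 of 4 animals, as 2.08% of all probes were, and 5.24% had the same sign in all animals in either direction. Of the paired differences, that of animal 19 was 0.56 and the others lay between 0.05 and 0.27. The means were 2.44 ± 0.37 at 4 g and 2.18 ± 0.36 at 0 g (SD, n = 4 each), a log2 difference of 0.25 (SE 0.22, 95% CI −0.29 to 0.80, limma adjusted p = 1.00).

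The 8 values of NFKBIA fell into a high set of 3 arrays, both of animal 20 and that of animal 19 at 4 g, and a low set of 5. The high set lay between 2.68 and 2.82 and the low set between 1.87 and 2.14. The high set includes both dim arrays, whose mean of 2.68 was 0.50 above the 2.18 of the others, and their part in the NFKBIA level was not tested. Animals 19 and 20 together averaged 2.58 ± 0.32, against 2.04 ± 0.12 in animals 23 and 24 (SD, n = 4 arrays from 2 animals each), a gap of 0.54 with ranges that overlap. The F-test over all 4 animals had an unadjusted p of 0.165 for NFKBIA (limma adjusted p = 0.985). Without the 2 dimmest arrays the 4 g and 0 g groups differed by 0.35 (95% CI −0.21 to 0.90, unpaired). Animal 20, high at both doses, is left there only at 4 g and animal 19 only at 0 g, so dose and animal are mixed. In animals 19 and 20 alone the dose difference was 0.35 and in animals 23 and 24 alone 0.16. The probe lies at chr21:46065617-46065676 on the minus strand (UMD 3.1).

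The 3 tested genes whose course over the 8 arrays came closest to that of NFKBIA, among 7885 named probes that varied at least 0.8 times as much, were LTN1, a ubiquitin ligase that clears stalled ribosome products, PIGT, which takes part in attaching proteins to GPI anchors, and the zinc finger gene IKZF5. Their root mean square distances from NFKBIA, each gene centred on its own mean, were 0.121, 0.151 and 0.152 log2 units, against a median of 0.533 over the candidates. This is a description of 8 arrays that include the 2 dim ones.

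NFKBIZ encodes IkB zeta, a nuclear member of the family that works with p50 to open a second wave of genes such as IL6 and is induced quickly by LPS. It stood at 0.88, 0.98, 0.87 and 0.71 on the 4 g arrays of animals 19, 20, 23 and 24, against 0.78, 1.55, 1.19 and 0.95 on the 0 g arrays. The 4 g arrays lay close together and the 0 g arrays were spread out, with the dim array of animal 20 on top. NFKBIZ was lower at 4 g in 3 of 4 animals. The means were 0.86 ± 0.11 at 4 g and 1.12 ± 0.33 at 0 g (SD, n = 4 each), a log2 difference of −0.26 (SE 0.23, 95% CI −0.81 to 0.30, limma adjusted p = 1.00). Without the 2 dimmest arrays it was −0.12 in an unpaired fit (95% CI −0.55 to 0.31). The NFKBIZ probe lies at chr1:46554405-46554464 on the plus strand (UMD 3.1).

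NFKBIB encodes IkB beta, which is broken down more slowly than IkB alpha. It had the smallest spread of the 10 genes, with levels of 1.69, 1.91, 1.60 and 1.88 on the 4 g arrays of animals 19, 20, 23 and 24 and 2.02, 1.95, 1.90 and 1.80 on the 0 g arrays. It was lower at 4 g in 3 of 4 animals, by a log2 difference of −0.15 (SE 0.22, 95% CI −0.68 to 0.39, limma adjusted p = 1.00). The NFKBIB probe lies at chr18:48891399-48891458 on the plus strand (UMD 3.1).

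NFKBIE and TNFAIP3 were well above background on 3 of 8 arrays each, 2 at 4 g and 1 at 0 g, and were not tested. NFKBIE encodes IkB epsilon, which damps the late part of the response. Its level was −5.02, −5.10, −6.27 and −5.20 on the 4 g arrays of animals 19, 20, 23 and 24, against −4.97, −4.93, −6.03 and −6.70 on the 0 g arrays. TNFAIP3 encodes A20, a ubiquitin-editing enzyme that shuts off signalling from TLR4 and the TNF receptor and is itself induced by NF-kB. Its level was −5.48, −4.67, −5.57 and −5.51 on the 4 g arrays, against −5.17, −4.63, −7.33 and −6.07 on the 0 g arrays. Both genes stood near or below the level of the dimmest probe well above background, used here as the limit of each array. This limit was −4.84, −5.62, −6.16 and −5.61 at 4 g and −5.75, −4.69, −5.98 and −6.14 at 0 g. It is not a strict limit of detection: TNFAIP3 at 0 g in animal 20 (−4.63) lay above it but was not well above background. On the dim arrays that limit is higher, so values there are not comparable with those of the bright arrays. The lowest TNFAIP3 value, −7.33, came from the array with the pancreatic transcripts. The 3 tested genes nearest in course to TNFAIP3, CYP3A74, FOXN3 and HAL, lay at distances of 0.356, 0.385 and 0.419 log2 units among 1769 candidates, and the TNFAIP3 side of that comparison rests on signals that were mostly not well above background.

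**Figure D3:**
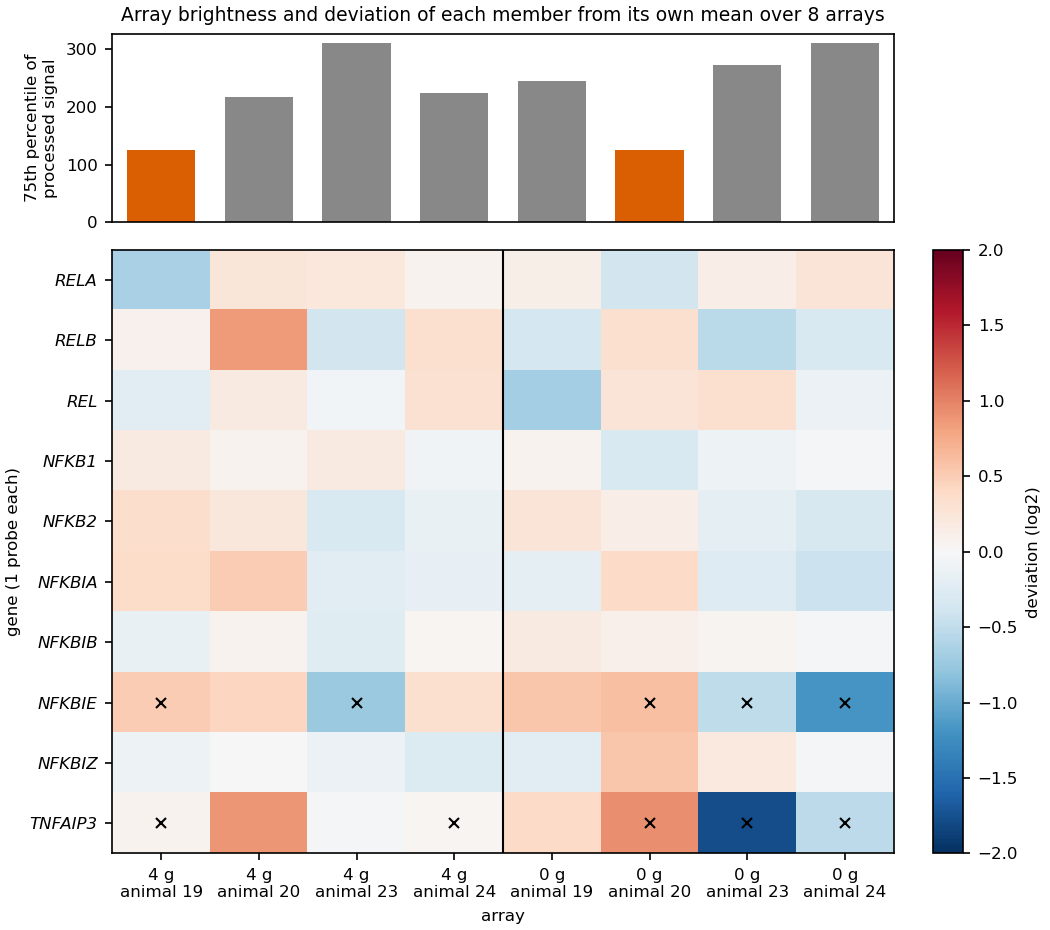
Top, the 75th percentile of the processed signal of each array, with the 2 dimmest arrays in orange; bottom, the deviation of each gene from its own mean over the 8 arrays (log2), 4 g arrays on the left and 0 g arrays on the right. Crosses mark signals not well above background. RELA is lowest on both dim arrays, and NFKB2 is higher in animals 19 and 20 than in animals 23 and 24 at either dose. So are NFKBIE and TNFAIP3, on signals that mostly carry crosses.

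Differences between animals were tested for the members in the same limma fit, by an F-test over the terms for animals. Of the 8 tested members 0 passed, against 0.00% of all 10985 probes, and 0 had an unadjusted p under 0.05, against 2.71%. The smallest p was that of RELB (unadjusted p = 0.0695, limma adjusted p = 0.985). This test rests on the labels of the arrays of animals 23 and 24, which went against the data for the probes named above.

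The genes that surround the members in the pathway were taken as 4 lists. Of the kinases and adaptors that carry the signal to NF-kB, 19 of 20 had a probe and 14 were tested. Of these 0 rose and 0 fell past the threshold, against 0.00% of all probes, and none had an unadjusted p under 0.05. The difference was above 0 in 13 of 14 (median 0.14), whereas it was above 0 in 55.1% of all tested probes (median 0.03). With normexp background correction 6 of 14 were above 0 (median 0.00, and 37.5% of all probes), and in animals 19 and 20 alone 8 of 14 were (median 0.11).

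IKBKG, the regulatory subunit of the IkB kinase known as NEMO, led this list. It stood at 1.68, 1.00, 1.29 and 1.38 on the 4 g arrays of animals 19, 20, 23 and 24, against 0.80, 0.88, 0.59 and 0.97 on the 0 g arrays. All 4 g arrays lay above all 0 g arrays, with the lowest at 1.00 and the highest at 0.97, as in 0.610% of tested probes for either direction. The log2 difference was 0.53 (SE 0.24, 95% CI −0.05 to 1.11) and did not pass (limma adjusted p = 1.00). It was 0.50 in animals 19 and 20 alone and 0.46 with normexp background correction. The highest IKBKG value, 1.68, came from the dim 4 g array of animal 19. RIPK1, the kinase that links the TNF receptor to the pathway, differed by 0.34 (SE 0.27). It was higher in 4 of 4 animals, as were 3.17% of all tested probes, but by little outside animal 19. There the dim array stood at 2.94 at 4 g, against 1.90 at 0 g. CHUK, the IkB kinase alpha that drives the non-canonical branch, differed by 0.30 (SE 0.26) and was higher in 3 of 4 animals.

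Of 24 other regulators 22 had a probe and 20 were tested, and 0 passed in either direction. The difference was above 0 in 11 and below 0 in 9 (median 0.05, or −0.12 without animal 24). BCL3, a nuclear IkB relative that partners p50 and p52, differed by −0.67 (SE 0.53, 95% CI −1.93 to 0.60), but its lowest value, −6.96 on the dim 4 g array of animal 19 (against −4.34 at 0 g), was not well above background and lay under that array's limit of −4.84. Its 0 g value in animal 20 (−4.89), on the other dim array, also lay under the limit there (−4.69). The BCL3 difference thus rests in part on signals that were not measured above background. With normexp background correction it was −0.17. The deubiquitinase CYLD, which restrains the pathway, differed by 0.32 (SE 0.27) and by −0.04 with normexp, and the ubiquitin ligase ITCH by 0.21 (SE 0.26). Each of the 3 had a limma adjusted p of 1.00.

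Target genes of NF-kB are where a change in activity would be read. Of 45 on the list 43 had a probe and 29 were tested, while IL6, SELE, PTGS2 and 11 others were too faint. None of the 29 rose or fell past the threshold (limma, smallest adjusted p = 1.00), and 0 had an unadjusted p under 0.05. The difference was above 0 in 19 and below 0 in 10 (median 0.13), against 55.1% above 0 over all tested probes (median 0.03). With normexp background correction it was above 0 in 13 and below 0 in 16 (median −0.02), against 37.5% above 0 over all probes (median −0.04). The neutrophil chemokine GRO1 stood at −3.54, −1.98, −3.47 and −3.62 on the 4 g arrays of animals 19, 20, 23 and 24, against −3.86, −2.62, −4.38 and −3.69 on the 0 g arrays. It was higher at 4 g in 4 of 4 animals, as were 3.17% of all tested probes, by 0.48 (SE 0.24, 95% CI −0.11 to 1.07) or by 0.08 with normexp. IRF1, a transcription factor induced by NF-kB and interferon, differed by 0.59 (SE 0.32), higher in 3 of 4 animals, and by −0.02 with normexp. It was well above background on every array, but some 0 g values lay just above the limit of their array. These were −6.03 in animal 24 (limit −6.14) and −4.61 in animal 20 (limit −4.69). CXCL3, another chemokine, differed by −0.65 (SE 0.43), lower in 3 of 4 animals. CXCL3 on the 4 g array of animal 24 (1.47) was the lowest of the 8 values, against 3.25 at 0 g.

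Of 13 receptors and binding proteins upstream, all had a probe and 11 were tested, with 0 past the threshold, 5 above 0 and 6 below 0 (median −0.01, or −0.08 without animal 19 and 0.06 without animal 20). The LPS-binding protein LBP, which hands LPS to CD14, stood at 4.20, 5.36, 5.08 and 5.59 on the 4 g arrays of animals 19, 20, 23 and 24, against 5.13, 5.42, 5.44 and 5.96 on the 0 g arrays. It was lower at 4 g in 4 of 4 animals, as were 2.08% of all tested probes, by −0.43 (SE 0.24, 95% CI −1.02 to 0.16, limma adjusted p = 1.00). Its lowest value, 4.20, came from the dim 4 g array of animal 19. CD40, a receptor that feeds both branches, differed by 0.22 (SE 0.22, higher in 4 of 4 animals, as were 3.17% of all tested probes). TLR4 differed by 0.27 (SE 0.42, higher in 2 of 4). TLR4 turned to −0.11 with normexp and was not well above background in animal 19 at either dose, with −4.91 at 4 g and −6.55 at 0 g. Kupffer cell and macrophage markers, from cells that carry these receptors, averaged 0.22 to 0.79 over 10 genes on the 4 g arrays and 0.52 to 0.80 on the 0 g arrays. Between 9 and 10 of them were well above background on each array. For neutrophils the mean over 8 genes was −2.84 to −2.41 at 4 g and −2.93 to −2.15 at 0 g, with 6 or 7 of them well above background on each array. The part of either cell type in these levels was not tested.

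**Figure D4:**
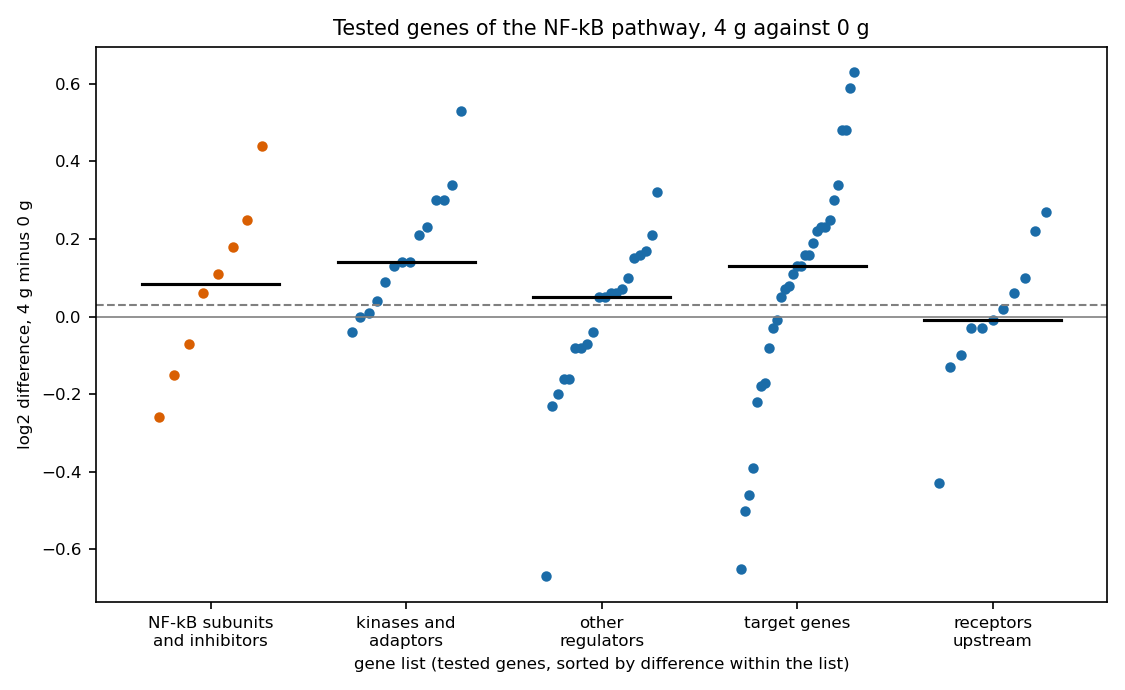
Log2 difference (4 g minus 0 g) of every tested gene in the NF-kB set (orange, 8 genes) and in the 4 lists around it (blue, 14 kinases and adaptors, 20 other regulators, 29 target genes and 11 receptors), sorted within each list, with black bars at the list medians. The dashed line is the median over all 10985 tested probes (0.03). Points of every list lie on both sides of 0, and no gene passed the test.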

How the data were processed

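Gene expression was measured with 1-colour Agilent arrays, 1 per sample. Per the file headers, the authors' intensity values are processed signals of Feature Extraction 11.0.1.1 (Agilent), background-subtracted and spatially detrended on a linear scale without scaling between arrays, and the submitters' processing notes name version 9.5. The deposited files also hold raw mean and local background intensities and flags for spot quality (well above background, saturated, outlier), coded as a number of 0 or 1 and not scaled. The deposited series table holds the authors' log2 values, which correlated with the log2 processed signals at 1.0000 on each array.

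From each array's log2 processed signal its 75th percentile was subtracted, 48 outlier spots were left out and spots of a probe were averaged. The 10985 probes that were well above background on 4 or more arrays were tested with limma 3.58.1 in R 4.3.3, with the animal as a block because the design makes each animal its own control. Deviations from the group means correlated within animals at −0.19 (19), −0.18 (20), 0.21 (23) and 0.13 (24). The dim arrays also move these values, and the pairing is taken from the titles. The fitting code was tested on simulated data. Slide and scan were shared by all arrays, leaving the slide row. The number of arrays limits the precision. Symbols outside the NF-kB set came from the files or from a RefSeq table of ARS-UCD2.0, by transcript accession where possible.

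The members and lists were chosen with earlier results of these data known. All members were named, with, per list, the 3 tested genes of smallest unadjusted p and, for NFKBIA and TNFAIP3, the 3 genes nearest in course. Other genes are named only to identify array anomalies or a count of 5 or fewer, and were chosen after their values were seen. Alternatives covered normexp (offset 50), quantile normalization, the series table, the filter, variance models, array weights, the block, the slide row and the animals or arrays used.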

Additional observations from a re-analysis of the deposited data

Results flagged for a closer look

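Of 20 groups of 4 arrays (10 genes at each dose) 2 held a value far from the other three by Dixon's criterion, where chance gives about 1 in 20. NFKBIE at 4 g stood at −6.27 in animal 23, against −5.20 to −5.02 in the others, and the gap took up 0.860 of the range. TNFAIP3 at 4 g stood at −4.67 in animal 20, against −5.57 to −5.48 in the others, a share of 0.898. Of these 8 signals 4 were well above background, among them TNFAIP3 in animal 20, while NFKBIE in animal 23 was not.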

How the results depend on the processing

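With 17 alternatives for 8 tested members, 131 of 136 differences kept their direction and all stayed on the same side of the threshold (smallest adjusted p of limma 0.971). The other 5 crossed 0 and belong to RELA and REL. Changing only the filter, the variance model or the block on all 8 arrays cannot move a difference in this balanced design. In those fits the direction was fixed in advance, and only the threshold was put to the test. RELA was −0.07 in the fit reported and 0.00 without the 2 dimmest arrays (no replicate block) and with array weights, and leaving out 1 animal at a time gave −0.29 to 0.17. REL was 0.11 in the fit reported, −0.07 with normexp background correction, and −0.01 to 0.27 with 1 animal left out. The cause was not tested. With no replicate block, 0 members and 0 of 10985 probes passed (103 unadjusted, against 120 with the block), the RELB difference was 0.44 with an unadjusted p of 0.182, and no other call changed. Over all probes, 5 passed without the 2 dimmest arrays (no replicate block): GIMAP4, GIMAP6, IL20RA and LOC768255, which split animals 23 and 24 by dose, and ULBP3. That fit keeps animal 19 only at 0 g and animal 20 only at 4 g, so dose and animal are mixed in it. Between animals, leaving out 1 at a time gave 0 to 1 probe, REC8 without animal 19. In animals 19 and 20 alone, 0 probes passed with 16 unadjusted. In animals 23 and 24 alone, added after the data were seen, 0 passed with 451 unadjusted. Signal over background limits NFKBIE, TNFAIP3 and, on the dim 4 g array, REL.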
